A study of Mus musculus with 24 samples.

Results

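A set of 10 genes of the Notch pathway were examined in the mesenchyme of the mouse hair follicle. They were chosen by name: the receptors Notch1, Notch2, Notch3 and Notch4, the ligands Jag1 and Dll1, and the transcriptional repressors Hes1, Hey1, Hey2 and Heyl. Each symbol matched 1 of the 25755 genes in the deposited values, so that all 10 of 10 were found, and each passed the filter on low values in every comparison. DP cells, the dermal papilla cells at the base of the follicle, were sorted from individual mice of 4 ages, in telogen of the first hair cycle (P20), in early and mid-anagen of the second cycle (P24 and P28) and in its telogen (P60). Telogen is the resting phase of the follicle and anagen its growth phase. For every age, RNA from 3 control and 3 dM1/2 mice was sequenced, which gave 24 libraries in 8 groups.

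dM1/2 mice are homozygous for floxed alleles of both Hdac1 and Hdac2, the genes of a pair of class I histone deacetylases. These alleles are deleted by Corin-Cre. Corin-Cre is active in the DP, and a ROSA26 EYFP allele lights up the cells in which Cre has acted, by which they were sorted as YFP-positive cells. Control mice also carry Corin-Cre together with some floxed Hdac1 or Hdac2 alleles, and the exact alleles of a given control library are not stated in its label. The Cre line was on an FVB background and the floxed and reporter lines on C57BL/6J. The sort thus depends on Cre activity and not on a surface marker of the DP.

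Notch receptors are membrane proteins that bind Jagged and Delta ligands on a neighbouring cell. Binding exposes the receptor to proteases, the last of which, gamma-secretase, frees the intracellular domain. This domain enters the nucleus, joins the DNA-binding protein Rbpj and a Mastermind coactivator, and switches on genes such as the Hes and Hey repressors. In the absence of the domain, Rbpj holds corepressors at these genes. In the hair follicle, Notch signals are best known from the epithelium, where they act on cell fate and on the maintenance of the follicle.

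The libraries held 8171944 to 49331751 reads on genes, with the P24 and P28 libraries deeper than those of P20 and P60. Values are given as normalized reads, which are the counts of a gene divided by the size factor of its library. By Xist and Ddx3y, telogen mice were female and anagen mice male, so that hair cycle phase, sex and depth cannot be told apart between these ages. The targeted gene Hdac1 ranged from 668 to 675 normalized reads in P24 controls and from 116 to 209 in P24 dM1/2, a log2 fold change of -2.01 (adjusted p = 0.00167). At P28 the library labelled P28 control 3 held 105 normalized reads of Hdac1, fewer than every dM1/2 library of that age (126 to 190.2), and the Hdac1 difference did not pass the test (adjusted p = 0.454). At P20 and P60 neither did it (adjusted p = 0.122 and 0.986). Control mice homozygous for floxed Hdac1 are among the genotypes of the study, and whether P28 control 3 came from one is not stated. Hdac2 passed at none of the 4 ages, and these counts cover the whole gene, so that deletion of some exons need not lower them. For the proteins, the study reported by immunostaining that most mutant DP cells had lost Hdac1 and Hdac2 in mid-anagen of the first cycle. Another library, P28 control 2, had the highest summed level of the other fibroblast markers among the 12 anagen libraries, and the members that rest on either library are given with and without it. All 15 DP markers were detected in every group. Of the 15 keratinocyte markers, 1 or 2 were at 0 in each telogen group, among them Krt71 of the inner root sheath, and all were detected in each anagen group. The keratinocyte sum ranged from 166 to 993 normalized reads over the 24 libraries.

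Hey2 showed the widest range of the set, and its promoter is shown because it holds matches to the binding consensus of Rbpj. The sequences are from RefSeq on GRCm38.p6, run 5′ to 3′ on the strand of the gene, and capitals mark matches to CGTGGGAA, the Rbpj consensus, on either strand. Hey2 is shown over chr10:30842774-30843033 (minus strand), from 250 bases before its start site to 10 bases after it. Notch4 (chr17:34564045-34564294, plus strand) and Notch3 (chr17:32166891-32167140, minus strand) are shown over the 250 bases before their start sites. In dM1/2 Notch4 was called lower at P28, and Notch3 was called higher at P24 and P28.
Hey2: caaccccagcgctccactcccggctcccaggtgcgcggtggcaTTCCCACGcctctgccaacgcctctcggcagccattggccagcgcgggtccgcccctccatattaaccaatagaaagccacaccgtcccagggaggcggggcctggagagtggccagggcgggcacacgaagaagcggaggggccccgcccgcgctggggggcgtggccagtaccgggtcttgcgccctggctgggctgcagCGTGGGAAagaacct
Notch4: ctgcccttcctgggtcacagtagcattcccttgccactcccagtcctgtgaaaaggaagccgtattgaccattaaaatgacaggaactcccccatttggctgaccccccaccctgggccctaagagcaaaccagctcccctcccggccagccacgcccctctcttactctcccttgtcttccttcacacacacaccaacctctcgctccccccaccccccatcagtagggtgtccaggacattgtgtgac
Notch3: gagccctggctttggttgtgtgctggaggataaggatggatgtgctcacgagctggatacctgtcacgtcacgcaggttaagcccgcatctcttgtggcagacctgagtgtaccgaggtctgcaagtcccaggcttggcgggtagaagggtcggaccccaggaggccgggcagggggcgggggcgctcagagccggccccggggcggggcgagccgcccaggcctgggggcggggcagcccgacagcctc

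Hey2 held 2 matches, one on the opposite strand from -207 to -200 and one on its own strand from -5 to 3, counted from the start site. The TGGGAA core was searched on both strands of 300-base windows around the start sites of 32851 RefSeq promoters, and it occurred in 25.6% of them, while CGTGGGAA, which contains the core, occurred in 0.734%. Only 4 of these promoters, or 0.0122%, held CGTGGGAA 2 or more times. The windows of Notch1, Notch2, Notch3, Notch4, Jag1 and Dll1 held no TGGGAA within 300 bases. Hes1, Hey1 and Heyl had no window among these promoters and were not searched. Sequence matches describe these letters only.

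Among the members, Hey2 fell in dM1/2 at P24 and Notch2 and Notch4 fell at P28, whereas Hes1 rose at P24, Notch3 rose at both anagen ages, and Notch1, Jag1 and Dll1 rose at P28. Each age was compared by limma on log2(normalized reads + 1), two-sided and adjusted over all genes tested, and a gene was called at an adjusted p under 0.05. At P20, 1 of 10 members rose and none fell, where 0.433% of all genes tested were called (0.354% higher and 0.0795% lower). At P24, 2 rose and 1 fell, where 26.6% of all genes were called (14.8% higher and 11.8% lower). At P28, 4 rose and 2 fell, where 35.5% of all genes were called (20% higher and 15.6% lower). At P60, 0 of 10 were called by limma and 0% of all genes were, and 1 member, Hes1, had an unadjusted p under 0.05 (3.74% of all genes). edgeR and DESeq2 called 0 members at P60. The share of members called at P24 was thus close to that of all genes. The members' median absolute log2 fold change was 0.74 at P24 and 1.10 at P28, and that of all genes tested was 0.37 and 0.48. The members were chosen with earlier results of these data known, so these shares and medians are a description.

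**Figure D1:**
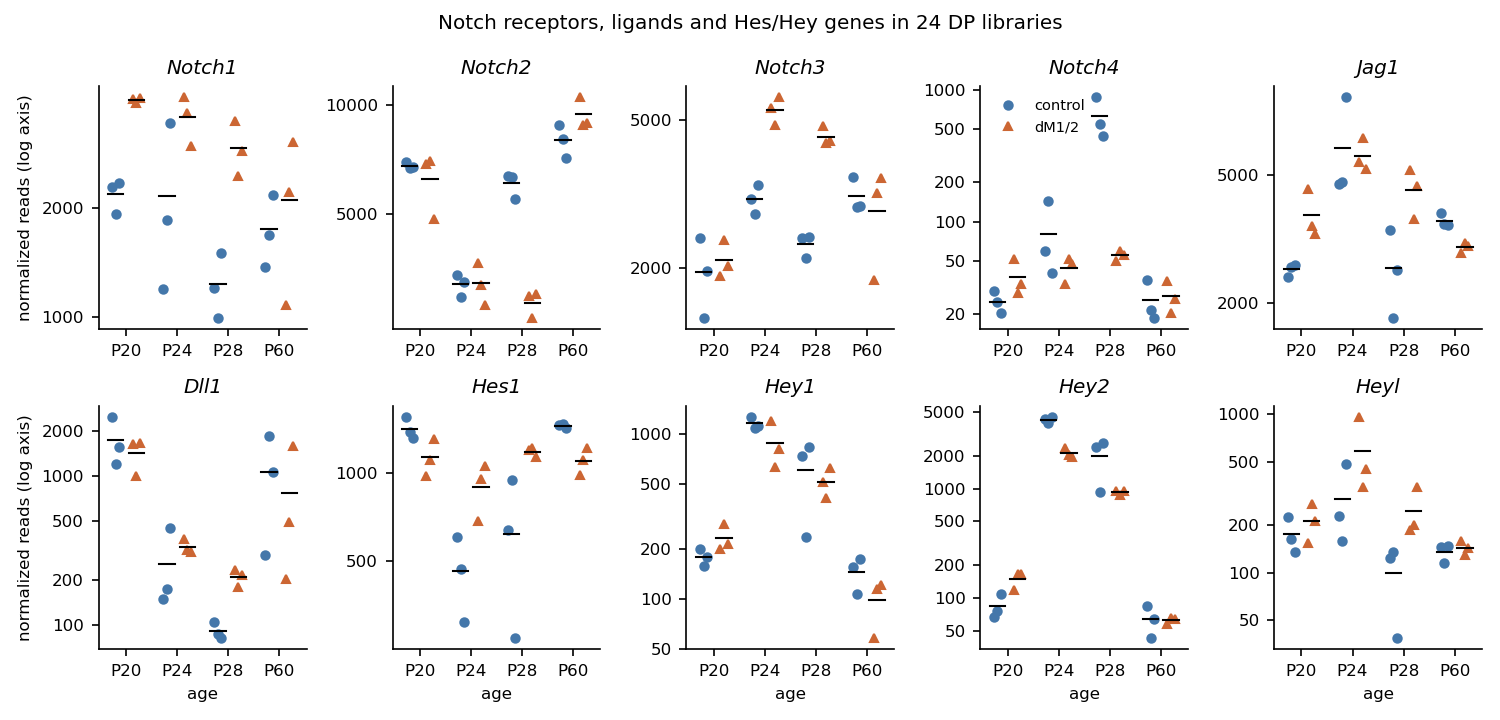
Normalized reads (log axis) of each of the 10 genes in each of the 24 libraries by age, with circles for control, triangles for dM1/2 and a bar at the mean of 3 libraries. At P28 Notch4 lies between 448 and 881 in control and between 50.3 and 59.6 in dM1/2, and Hey2 at P24 lies at or above 4004 in every control library and at or below 2370.1 in every dM1/2 library.

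**Figure D2:**
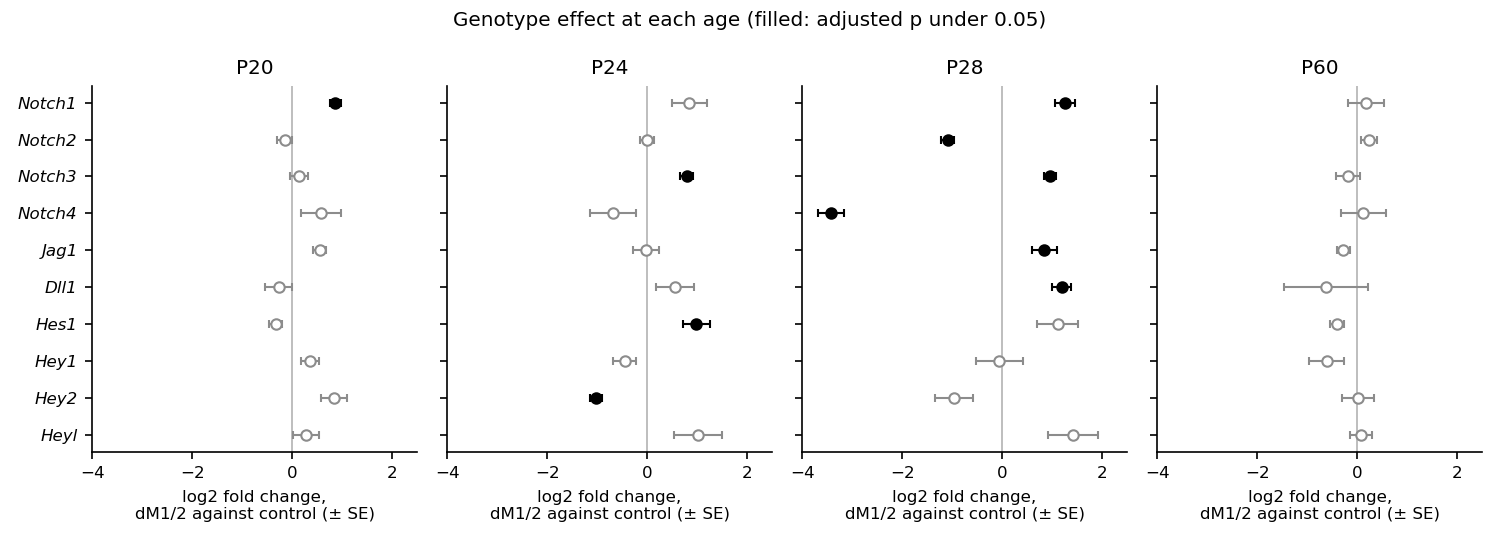
Log2 fold change of dM1/2 against control for each gene (± SE, 3 libraries against 3) in 1 panel per age, filled where the adjusted p was under 0.05. Among the 10 genes the filled points are 1 (P20), 3 (P24), 6 (P28) and 0 (P60), and Notch4 at P28 lies farthest from 0, at -3.43.

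Of the receptors, Notch4, known mainly from endothelial cells, had the largest genotype difference. It lies on chromosome 17 of GRCm38 from 34564268 to 34588503 (ENSMUSG00000015468). At P28 Notch4 had 881, 554 and 448 normalized reads in the controls (mean 628 ± 226, SD, n = 3). It had 50.3, 59.6 and 55.8 normalized reads in dM1/2 (mean 55.2 ± 4.65, SD, n = 3). Every control library thus stood above every mutant library, and the P28 mutants were close to the mutants of P24. The log2 fold change was -3.43 (SE 0.26, adjusted p = 0.000373), a 10.8-fold lower level in dM1/2. Left out in turn, no library ended this call, and without the library labelled P28 control 3 the log2 fold change was -3.64. At P24 Notch4 had 60.0, 143 and 40.5 normalized reads in controls and 33.4, 52.2 and 47.3 in dM1/2. These groups overlapped, with a log2 fold change of -0.68 (SE 0.46, adjusted p = 0.312). In the telogen libraries of both genotypes Notch4 stayed between 18.4 and 52.3 normalized reads. The genotype effect on Notch4 at P28 minus that at P24 was -2.75 on the log2 scale and did not pass the test (SE 0.57, adjusted p = 0.0593), and the effect in anagen minus that in telogen did (-2.40, SE 0.39, adjusted p = 0.000169).

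Markers of endothelial cells were read beside Notch4. The summed level of the 12 endothelial markers at P28 ranged from 490.0 to 1892 normalized reads in control and from 1317 to 1583 in dM1/2, so that the groups overlapped. Of the 10 endothelial markers tested at P28, 1 rose and none fell, and this was Flt1, a VEGF receptor, with 3.41 to 77.4 normalized reads in control and 647 to 709 in dM1/2. Flt1 is among the 12 summed markers, so that its 647 to 709 normalized reads are part of the dM1/2 sums of 1317 to 1583. The sums without Flt1 were not compared. The defining markers overlapped between the genotypes: Pecam1 ranged from 22.0 to 125 normalized reads in control and from 20.6 to 120.4 in dM1/2, and Cdh5 from 19.0 to 131 and from 17.6 to 77.5. Among the P28 controls Notch4 was highest, at 881 normalized reads, in P28 control 1, which had the highest endothelial sum of that group (1892). Notch4 was lowest, at 448, in the library labelled P28 control 3, which had the lowest endothelial sum of the 12 anagen libraries (490.0). At P24, 2 of the 10 endothelial markers tested rose and 1 fell. The endothelial sum at P24 ranged from 623 to 1369 normalized reads in control and from 840.4 to 1378 in dM1/2. The part of endothelial cells in the Notch4 values was not tested. In RNA from sorted cells, fewer cells of a type and less RNA per cell cannot be told apart.

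**Figure D3:**
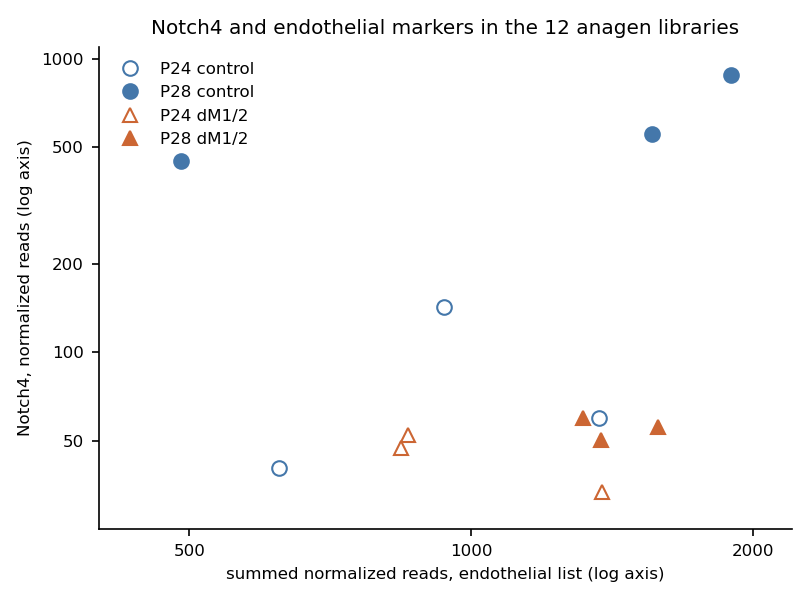
Normalized reads of Notch4 against the summed normalized reads of 12 endothelial markers in the 12 anagen libraries, both on log axes, with open symbols for P24, filled symbols for P28, circles for control and triangles for dM1/2. The P28 controls spread from 490.0 to 1892 on the endothelial axis and stay at or above 448 on the Notch4 axis, while the P28 dM1/2 libraries stay at or below 59.6 on the Notch4 axis at endothelial sums from 1317 to 1583. The sums include Flt1, which was called higher in dM1/2 at P28.

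Notch2, a receptor with broad expression, was the most abundant receptor in every telogen group. At P28 its normalized reads were 6382, 6335 and 5492 in controls and 2969, 2581 and 3000.5 in dM1/2. All control libraries lay above all mutant libraries, and Notch2 fell by 1.09 on the log2 scale (SE 0.13, adjusted p = 0.00147). At P24 the values were 3405, 2953 and 3240.0 in controls and 3665, 3180.0 and 2811 in dM1/2, with overlapping groups and a mean ratio of 1.01. The genotype effect on Notch2 at P28 minus that at P24 was -1.09 (SE 0.18, adjusted p = 0.0310), in a test in which 0.707% of all genes were called (0.453% higher and 0.255% lower). This call was lost in 7 of 12 leave-one-out fits (without P24 control 1 or 3, without P24 dM1/2 1 or 2 and without any 1 of the P28 dM1/2 libraries) and with the replicate block (adjusted p = 0.112). No other member passed this test of the difference between the 2 ages. In controls Notch2 rose from P24 to P28 by 0.92 (adjusted p = 0.0370), a call that was lost when any 1 of the 6 libraries was left out. In dM1/2 its log2 difference between these ages was -0.17 (adjusted p = 0.582).

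Notch3, a receptor best known from mural cells of vessels, rose in dM1/2 at both anagen ages. At P24 Notch3 had 3058, 2795 and 3348 normalized reads in controls and 5371, 4844 and 5757 in dM1/2. At P28 it had 2405, 2126 and 2428 in controls and 4802, 4325 and 4386 in dM1/2. The groups stood apart at both ages, and the log2 fold changes were 0.80 (SE 0.13, adjusted p = 0.00498) and 0.96 (SE 0.12, adjusted p = 0.00159). Both calls remained in each of the 6 leave-one-out fits of their age. At P20 and P60 the groups overlapped (log2 fold changes 0.13 and -0.18), and the effect in anagen minus that in telogen was 0.90 (SE 0.19, adjusted p = 0.00149). Of 10 tested markers of pericytes and smooth muscle, 2 rose at P28 and none fell, namely Mcam and Cspg4, and the summed level of the list ranged from 4383 to 14015 normalized reads in control and from 7451 to 12347 in dM1/2. At P24, 1 of the 10 tested rose, again Mcam, and none fell, and the sum ranged from 6372 to 14812 in control and from 6704 to 9773 in dM1/2. Rgs5, a defining pericyte marker, overlapped between genotypes at P28, with 314 to 2975 normalized reads in control and 562 to 1649 in dM1/2. The part of mural cells in the Notch3 values was not tested.

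Notch1, the receptor most studied in hair follicle epithelium, was the 1 member called at P20. It had 2279, 1924 and 2343 normalized reads in P20 controls and 3986, 3886 and 4021 in P20 dM1/2. The groups were apart, and the log2 fold change was 0.87 (SE 0.11, adjusted p = 0.0245). Marker sums also separated the P20 genotypes, since the 10 other fibroblast markers summed to 8708472 to 11288896 normalized reads in control and to 4648403 to 6190379 in dM1/2, and the 15 DP markers to 34545 to 39422 and to 43632 to 62947. Of these markers, 1 of 15 DP markers rose and 0 of 10 other fibroblast markers were called at P20, and their part in the Notch1 difference was not tested. The Notch1 call at P20 remained in only 1 of 6 leave-one-out fits, with log2 fold changes of 0.78 to 0.92 throughout and adjusted p from 0.0129 to 0.118. At P28 Notch1 had 1201, 990.1 and 1495 normalized reads in controls and 3463, 2446 and 2865 in dM1/2, again without overlap (log2 fold change 1.26, SE 0.20, adjusted p = 0.00368). At P24 it had 1194, 1843 and 3419 in controls and 4037, 3638 and 2963 in dM1/2. Here P24 control 3 lay within the mutant range and the test was not passed (0.84, SE 0.35, adjusted p = 0.114). Without that library the log2 fold change was 1.24 (adjusted p = 0.00561). At P60 the groups overlapped, with 1075 to 3026 normalized reads over the 6 libraries and a log2 fold change of 0.17. The effect on Notch1 in anagen minus that in telogen did not pass the test (0.53, SE 0.33, adjusted p = 0.238).

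Compared per kilobase of exon, which allows levels of different genes to be set side by side, the leading receptor changed. In P28 controls Notch2 was at 563 ± 46.5 normalized reads per kb (SD, n = 3), Notch3 at 287 ± 20.8, Notch1 at 86.4 ± 17.8 and Notch4 at 77.9 ± 28.0. In P28 dM1/2 Notch3 led at 557 ± 32.1 per kb, followed by Notch2 at 264 ± 21.6 and Notch1 at 206 ± 35.9, whose libraries overlapped, with Notch4 at 6.85 ± 0.58. The ratio of Notch3 to Notch2 per kb was between 0.447 and 0.589 in the P28 controls and between 1.95 and 2.23 in P28 dM1/2. At P24 this ratio was above 1 in every library, with 1.20 to 1.38 in control and 1.95 to 2.73 in dM1/2. In the 12 telogen libraries it was between 0.236 and 0.558. Mutant libraries thus kept at P28 the ratio they had at P24, while the ratio of the control libraries was lower at P28 than at P24 without overlap.

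**Figure D4:**
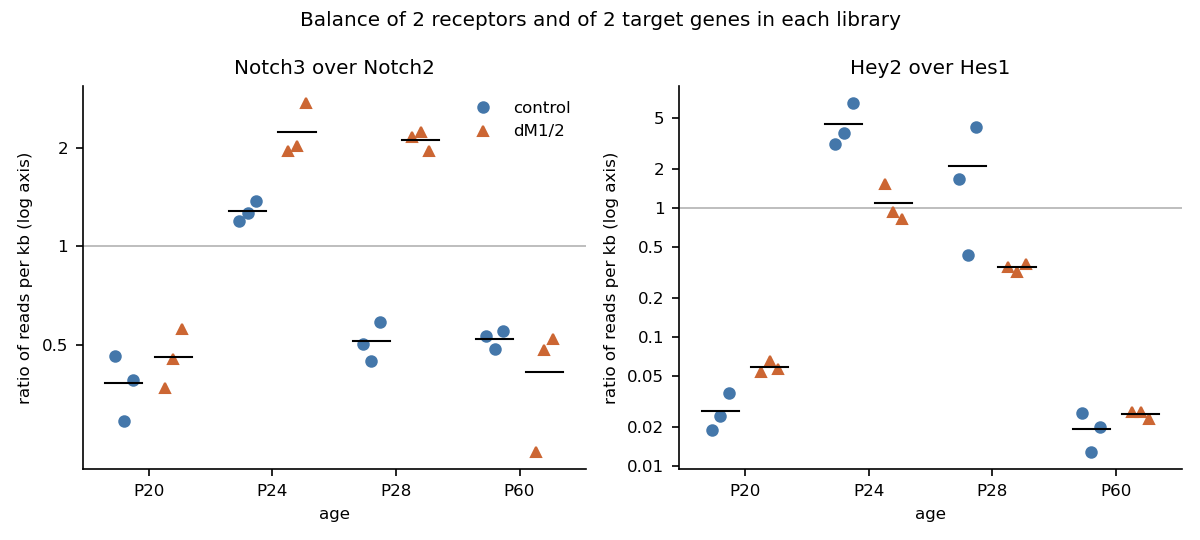
Ratio of normalized reads per kb (log axis) of Notch3 to Notch2 and of Hey2 to Hes1 in each library by age, with circles for control, triangles for dM1/2, a bar at the mean of 3 libraries and a grey line at a ratio of 1. The P28 controls have Notch3 to Notch2 ratios of 0.447 to 0.589 and the P28 dM1/2 libraries of 1.95 to 2.23.

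Of the ligands, Jag1 had the higher mean per kb in every group. In the P20 controls the ligands overlapped, with 414 to 451 normalized reads per kb for Jag1 and 287 to 594 for Dll1. Jag1 had 3377, 1789 and 2523 normalized reads in P28 controls and 5211, 3656 and 4626 in P28 dM1/2. The groups did not overlap, although the lowest mutant and the highest control were close, and Jag1 rose by 0.84 on the log2 scale (SE 0.25, adjusted p = 0.0400). This call remained in 2 of 6 leave-one-out fits, and without P28 control 2 it was lost (0.61, adjusted p = 0.0631). At P20 the groups did not overlap either, with 2411 to 2630.1 normalized reads in control and 3292 to 4520.4 in dM1/2, but the test was not passed (0.55, adjusted p = 0.0909). At P24 they overlapped because P24 control 3 held 8794 normalized reads against 4687 and 4768 in the other controls. At P60 Jag1 had 3491 to 3812 normalized reads in control and 2855 to 3078 in dM1/2, again without overlap and without passing the test (-0.28, adjusted p = 0.986).

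Dll1, a Delta-like ligand, rose at P28 from a low level. Its normalized reads were 105, 86.5 and 81.5 in controls and 232, 179 and 218 in dM1/2, so that each mutant library stood above each control. The log2 fold change of Dll1 was 1.20 (SE 0.19, adjusted p = 0.00393), a call kept in all 6 leave-one-out fits and lost in a single fit over all 24 libraries (adjusted p = 0.128). At P24 it had 148, 174 and 448 normalized reads in controls and 379, 317 and 309 in dM1/2, which overlapped through P24 control 3 (log2 fold change without that library 1.05, adjusted p = 0.00451). Telogen levels were higher and scattered. They ranged from 1003 to 2504 at P20 and from 202 to 1859 at P60 over both genotypes, with no call at either age.

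Of the targets, Hey2 was low in the telogen libraries, with 18 to 90 reads in each, and abundant in the anagen libraries. Phase, sex and depth cannot be told apart in this contrast. This gene, a repressor with a basic helix-loop-helix domain, lies on chromosome 10 of GRCm38 from 30832359 to 30842801 (ENSMUSG00000019789). At P24 Hey2 had 4301, 4004 and 4524 normalized reads in controls and 2370.1, 2017 and 1954 in dM1/2. Every mutant library lay below every control, and Hey2 fell by 1.02 on the log2 scale (SE 0.12, adjusted p = 0.00210), a call that remained in all 6 leave-one-out fits. DP markers moved with it at P24: 7 of 15 fell and none rose, and their sum was 331985 to 396341 normalized reads in control and 182837 to 220036 in dM1/2, without overlap. At P28, 4 of 15 DP markers fell and 3 rose, and the sum was 167316 to 482791 in control and 144309 to 161615 in dM1/2. The part of these shifts in the Hey2 values was not tested. At P28 Hey2 had 2409, 932 and 2619.7 normalized reads in controls and 945, 879 and 949 in dM1/2. Here P28 control 2 lay within the mutant range, and the test was not passed (-0.97, SE 0.38, adjusted p = 0.0890). Without P28 control 2 the log2 fold change was -1.44 (adjusted p = 0.000509), and without the library labelled P28 control 3 it was -0.70 (adjusted p = 0.140). In telogen Hey2 ranged from 42.9 to 166 normalized reads. At P20 each dM1/2 library (118 to 166) lay above each control (67.0 to 109), but the test was not passed (0.84, SE 0.25, adjusted p = 0.125). At P60 the log2 fold change was 0.02. The effect in anagen minus that in telogen was -1.42 (SE 0.29, adjusted p = 0.00117).

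Hes1, the Hes repressor most widely used as a readout of Notch signals, went the other way from Hey2 in anagen. At P24 Hes1 had 604, 467 and 309 normalized reads in controls and 682, 949 and 1051 in dM1/2. The groups did not overlap, and Hes1 rose by 0.99 on the log2 scale (SE 0.27, adjusted p = 0.0308). The call was lost without P24 control 2, without P24 dM1/2 2 and without P24 dM1/2 3. With the replicate number as a block its adjusted p was 0.0780. At P28 it had 636, 945 and 272 normalized reads in controls and 1201, 1214 and 1129.7 in dM1/2, without overlap and with controls that scattered more than mutants (1.11, SE 0.42, adjusted p = 0.0790). Without P28 control 2 the value was 1.50 (adjusted p = 0.0143), and without the library labelled P28 control 3 it was 0.61 (adjusted p = 0.0309). In telogen the order was turned around. At P20 Hes1 had 1311 to 1553 normalized reads in control and 975 to 1304 in dM1/2 (-0.33, adjusted p = 0.219), and at P60 1425 to 1468 in control and 979.5 to 1214 in dM1/2 (-0.40, adjusted p = 0.986, unadjusted p = 0.0208). The groups did not overlap at either age, and the effect in anagen minus that in telogen was 1.41 (SE 0.30, adjusted p = 0.00155).

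The per kb ratio of Hey2 to Hes1 lay between 3.16 and 6.49 in the P24 controls and between 0.824 and 1.54 in P24 dM1/2. At P28 it was between 0.437 and 4.28 in controls and between 0.321 and 0.372 in dM1/2, with P28 control 2 at the lower end of the controls. In telogen Hey2 was a small share of Hes1, with ratios of 0.0130 to 0.0369 in control and 0.0232 to 0.0658 in dM1/2.

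Hey1 and Heyl, the other Hey family repressors, passed the test at no age. At P28 Hey1 had 733, 238 and 834 normalized reads in controls and 509, 412 and 619 in dM1/2, and its low control was again P28 control 2. Without that library the Hey1 log2 fold change was -0.63 (adjusted p = 0.0461), and without the library labelled P28 control 3 its sign turned (0.28, adjusted p = 0.632). At P24 it had 1088 to 1271 in control and 629 to 1195 in dM1/2, which overlapped. Heyl at P28 had 124, 134 and 38.7 normalized reads in controls and 185, 199.7 and 344 in dM1/2, which did not overlap (1.42, SE 0.51, adjusted p = 0.0684). Heyl was called when P28 control 2 was left out (1.74, adjusted p = 0.0388), and when the library labelled P28 control 3 was left out (0.85, adjusted p = 0.0458). At P24 Heyl had 226, 159 and 484 normalized reads in controls and 957, 348 and 447 in dM1/2, which overlapped (1.03, adjusted p = 0.155).

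Leaving out P28 control 2 raised the number of members called at P28 from 6 to 9, and leaving out the library labelled P28 control 3 raised it to 8. Notch1, Notch2, Notch3, Notch4 and Dll1 were called at P28 with either of them left out. Leaving out P24 control 3 raised the number at P24 from 3 to 6. Groups did not overlap for 4 members at P20 (25.4% of all genes), for 3 at P24 (44.8%), for 8 at P28 (51.3%) and for 2 at P60 (8.87%).

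The tested difference between the anagen and the telogen effect gave 5 of 10 members, where 30.2% of all genes were called (16.1% higher and 14.1% lower). Notch3 and Hes1 were higher in dM1/2 relative to control in anagen than in telogen, and Notch2, Notch4 and Hey2 lower. For Notch2 the value was -0.59 (SE 0.14, adjusted p = 0.00357), with a fall called at P28 and no call at P24. The remaining 5 members, Notch1, Jag1, Dll1, Hey1 and Heyl, did not pass, with Dll1 at 1.32 (SE 0.61, adjusted p = 0.109) and Heyl at 1.04 (SE 0.45, adjusted p = 0.0854).

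Control libraries alone differed between the phases in 6 of 10 members, where 45.6% of all genes were called (23.8% higher and 21.9% lower). Hey2 was higher in anagen by 5.27 on the log2 scale (SE 0.26, adjusted p = 1.9e-07), Notch4 by 3.04 (SE 0.31) and Hey1 by 2.28 (SE 0.27). Dll1 fell by 3.04 (SE 0.42), Hes1 fell by 1.54 (SE 0.26) and Notch2 fell by 0.74 (SE 0.09). Notch1, Notch3, Jag1 and Heyl did not pass, with differences between -0.32 and 0.33. Marker lists moved between the same control libraries: 14 of 15 DP markers were higher in anagen and none lower, while 5 of 10 other fibroblast markers and 6 of 10 pericyte and smooth muscle markers were lower and none higher. The DP sum was 27541 to 39422 normalized reads in telogen controls and 167316 to 482791 in anagen controls. The part of these markers in the differences was not tested, and phase, sex and depth cannot be told apart, as above.

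Within anagen, controls of P28 against P24 called 2 members, where 1.46% of all genes were called (0.723% higher and 0.738% lower), and both rose, Notch2 as above and Notch4 by 3.08 (SE 0.49, adjusted p = 0.0450). The Notch4 call remained in 1 of 6 leave-one-out fits and was lost with edgeR (adjusted p = 0.0592). In dM1/2 only Hey2 was called, where 2.67% of all genes were (1.69% higher and 0.983% lower), and it fell by 1.19 (SE 0.12, adjusted p = 0.00407), a call lost in a single fit over all 24 libraries (adjusted p = 0.0679). In controls the Hey2 difference was -1.24 (SE 0.39, adjusted p = 0.165), and the effect at P28 minus that at P24 was 0.05 (SE 0.43), so that the decline of Hey2 between these ages was not shown to differ between genotypes. The P24 and P28 libraries of a genotype also enter the genotype comparisons, so these counts are not independent of each other.

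Ordered by level per kb, Jag1 stood first in the P24 controls at 1044 ± 403 normalized reads per kb (SD, n = 3), beside Hey2 at 931 ± 56.8, and these neighbours overlapped. In P28 controls the 5 leading genes, Notch2, Jag1, Hey2, Hes1 and Notch3, overlapped from neighbour to neighbour. In P28 dM1/2 Jag1 led at 772 ± 135, apart from Hes1 at 580.0 ± 22.2, and Hes1 and Notch3 overlapped. In telogen controls Notch2 and Hes1 shared the first places, with overlapping libraries, at 629 and 694 per kb at P20 and at 741 and 711 at P60. Notch4 was last in 7 of the 8 groups, and in P28 controls it stood above Dll1 and Heyl.

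The rest of the pathway was read from a list of 60 genes: other ligands, proteases, sugar transferases, ubiquitin ligases, the nuclear complex, corepressors and other Hes genes. At P20 none of the 54 tested were called and at P60 none of 54. At P24, 5 of 53 rose and 7 fell, against 26.6% of all genes called. At P28, 11 of 54 rose and 15 fell, against 35.5% of all genes. The median log2 fold change of the list was -0.12 at P24 and -0.26 at P28, and that of all genes was -0.01 and 0.00.

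None of the 10 proteases rose at P28 and 4 fell, where 15.6% of all genes were lower and 20% higher. These shares stand beside the counts of the other groups at P28 too, and no group was tested against all genes. The proteases act on the receptor at different steps. Furin, the convertase that cleaves Notch precursors, was at 8267 ± 2386 normalized reads in control (SD, n = 3) and at 3036 ± 276 in dM1/2, and fell by 1.41 on the log2 scale (SE 0.22). Psen2, a catalytic subunit of gamma-secretase, fell by 1.02 at P24 (SE 0.24) and by 1.67 at P28 (SE 0.14), from 501 ± 56.0 to 156 ± 2.70 normalized reads at P28. Ncstn, the nicastrin subunit of the same enzyme, fell by 0.86 at P24 (SE 0.18) and by 1.31 at P28 (SE 0.17), from 2641 ± 328 to 1069.7 ± 177 normalized reads at P28.

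Among 13 ubiquitin ligases and endocytosis genes, 3 rose and 3 fell at P28. Neurl1b, a Neuralized ligase that acts on ligands in the sending cell, rose by 2.04 at P24 (SE 0.23) and by 2.91 at P28 (SE 0.20), from 53.1 to 81.3 normalized reads in the P28 controls to 498 to 552 in dM1/2. Its relative Neurl1a rose by 2.23 at P28 (SE 0.25). Dtx1, a Deltex ligase that binds the receptor, rose by 0.73 at P24 (SE 0.19). Of 5 sugar transferases tested, 1 rose and 2 fell at P28. Lfng, a Fringe enzyme that alters which ligands a receptor answers to, rose by 1.06 at P24 (SE 0.31), and Eogt, which adds sugar to the extracellular repeats, fell by 0.92 (SE 0.16).

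Of 5 other ligands tested at P28, 2 rose and none fell. Dlk1, a Delta-like protein without the domain that activates Notch, had 11.0 to 111 normalized reads in controls and 391 to 911 in dM1/2 and rose by 3.48 (SE 0.86, adjusted p = 0.0199). It is also on the list of other fibroblast markers, of which it was the 1 called of 10. Jag2 rose by 1.85 (SE 0.57, adjusted p = 0.0441) from a low level, 13.9 ± 9.25 to 45.6 ± 13.0 normalized reads (SD, n = 3).

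The nuclear genes went in both directions. Rbpj passed at neither anagen age, with 1667 ± 178 normalized reads in P28 controls and 1413 ± 157 in P28 dM1/2 (log2 fold change -0.24, SE 0.14, adjusted p = 0.222). Of 9 genes of the nuclear complex and coactivators, 1 rose and 2 fell at P28, and of 10 corepressors 3 rose and 4 fell. Tle2, a Groucho-type corepressor that Hes proteins recruit, fell by 1.50 at P24 (SE 0.39) and by 1.28 at P28 (SE 0.23). Hes6, which unlike Hes1 is not a typical Notch target, rose by 0.64 at P24 (SE 0.17). Nrarp, a feedback inhibitor induced by Notch, was at 60.2 ± 35.9 normalized reads in P28 controls and 104 ± 12.4 in dM1/2 and did not pass (0.97, SE 0.46, adjusted p = 0.146).

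**Figure D5:**
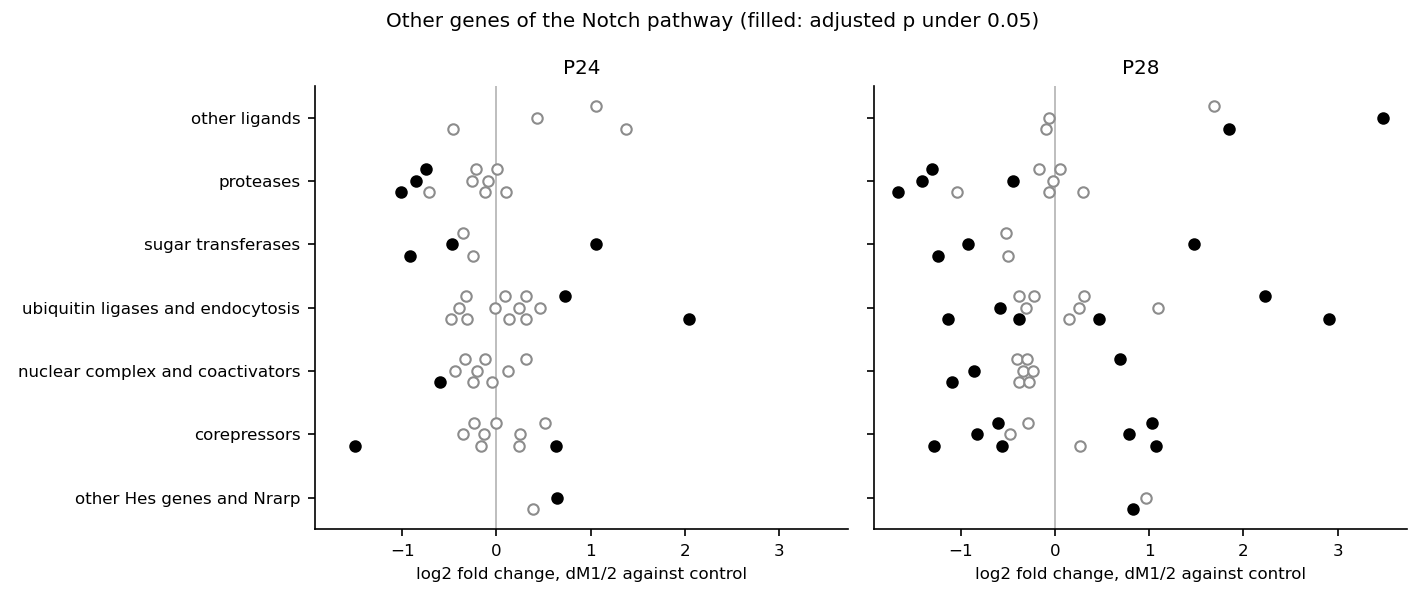
Log2 fold change of dM1/2 against control for each tested gene of 7 groups of the Notch pathway list at P24 and at P28, filled where the adjusted p was under 0.05. The proteases have 3 filled points at P24 and 4 at P28, all of them below 0, and the ubiquitin ligases reach 2.91 at P28.

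The members also varied together to different degrees. Over the 24 libraries, centred on the mean of the 6 libraries of their age, Pearson's r was 0.77 between Notch1 and Notch3, 0.78 between Notch2 and Notch4, -0.77 between Hes1 and Hey2 and -0.71 between Notch3 and Notch4. The points share genotype and libraries, so these values are a description. Among 13402 genes compared in the same way, the genes most like each member were Rest, Suv39h2 and Klhl32 for Notch1 (r from 0.92 to 0.93), Sptbn1, Fmn1 and Akap12 for Notch2 (0.89 to 0.90), Epb41, Spire1 and Pcbp3 for Notch3 (0.92 to 0.94) and Lrp1, Ntrk3 and Nin for Notch4 (0.89 to 0.91). For the ligands they were Hcrtr2, B3galt5 and Sms for Jag1 (0.79 to 0.81) and Txnrd1, Simc1 and Cnnm4 for Dll1 (0.87 to 0.89). For the repressors they were Tspan2, Irx3 and Itga7 for Hes1 (0.89 to 0.92), Ndp, Lss and Arl2 for Hey1 (0.79 to 0.84), Sall2, Npy4r and Fam210a for Hey2 (0.88 to 0.91) and Hcn4, Msantd1 and Filip1l for Heyl (0.82 to 0.85).

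Notch1, Notch3, Notch4 and Dll1 each overlap at least 1 gene on the opposite strand in the annotation. The partners of Notch1 (0610009E02Rik and Gm13568) and of Notch4 (Gm20462, which shares no exon bases with it) had no deposited values and could not be compared. The strand setting of the counting was not given in the sources used here. Gm17276, opposite Notch3, had at most 11.1 normalized reads in any library, and A930024N18Rik, opposite Dll1, had at most 16.1, so that the values of Notch3 and Dll1 were far above those of these partners.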

How the data were processed

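RNA-seq libraries of sorted DP cells, 24 in all, were grouped by the age and genotype in their labels, with 3 libraries in each of 8 groups. Per the labels and methods of the study, ribosomal RNA was depleted, directional libraries were sequenced from a single end, and the authors trimmed reads by Trimmomatic, mapped them to mm10 by TopHat version 2, counted them per gene with HTSeq on GRCm38.p4 and normalized the 24 libraries together with DESeq2. The deposited signal is the read count of a gene divided by the size factor of its library. Whole reads were recovered for 100% of the deposited values within a tolerance of 0.01, and depth was 8171944 to 49331751 reads per library. Of 25755 genes, 4842 had no read. Columns with the authors' own fold changes and p-values were not used.

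The main test was limma 3.58.1 (R 4.3.3) with its trend option, fitted to log2(normalized reads + 1) and two-sided. Genes entered where the libraries of a fit averaged 10 or more normalized reads, p-values were adjusted after Benjamini-Hochberg over every gene tested, and the threshold was 0.05. The pseudocount understates the fold change of low genes. Libraries of a single age entered each genotype comparison, 12 libraries the difference between P24 and P28, and all 24 the difference between anagen and telogen. Since the values are normalized, edgeR 4.0.16 (TMM) and DESeq2 1.42.0 on the recovered reads were alternatives, with a pseudocount of 10, no filter, a threshold of 0.01, a replicate block, a fit over 24 libraries at once and the omission of single libraries. With 3 libraries against 3, an exact permutation test cannot go below p = 0.1, and none was used. The test was checked on simulated data with the same setting for the scatter between replicates in every gene. That check does not cover genes that scatter more between libraries.

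The members and all gene lists were chosen with earlier results of these data known. Named were all members, up to 4 largest rises and 4 largest falls of the pathway list at P24 and at P28, and the 3 genes of highest r with each member. Rbpj, Nrarp and the marker genes were named outside this rule after their values were seen. Levels per kb used exon length from GENCODE on GRCm38, which is also the build of the coordinates. RefSeq promoter windows (GRCm38.p6) were matched by symbol for 7 of 10 members. Mice are separate animals by the methods of the study.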

Additional observations from a re-analysis of the deposited data

Results flagged for a closer look

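The genotype effect on some members differed between ages in a test of the difference itself. For Notch2 the effect at P28 minus that at P24 was -1.09 on the log2 scale (adjusted p = 0.0310), a call lost in 7 of 12 leave-one-out fits and with the replicate block (adjusted p = 0.112). The effect in anagen minus that in telogen was -0.59 for Notch2, 0.90 for Notch3, -2.40 for Notch4, 1.41 for Hes1 and -1.42 for Hey2. Since telogen mice were female and anagen mice male, phase and sex cannot be told apart in the latter 5 values.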

How the results depend on the processing

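The calls of Notch3 and Hey2 at P24 and of Notch1, Notch2, Notch3 and Notch4 at P28 remained under edgeR, DESeq2, a pseudocount of 10 and no filter, and when any 1 library of the age was left out. Counts of members called moved more where few genes passed. DESeq2 called 2 members at P20, 5 between P24 and P28 in control, 4 in dM1/2 and 2 for the genotype effect at P28 minus that at P24, and 2 other pathway genes at P20. edgeR called 1 member between P24 and P28 in control, and a pseudocount of 10 called 2 for the effect at P28 minus that at P24. At an adjusted p under 0.01 the members called were 0 at P20, 0 between P24 and P28 in control and 0 for the effect at P28 minus that at P24, and the other pathway genes were 2 at P24 and 15 at P28. A single fit over 24 libraries called 0 members at P20, 5 between P24 and P28 in control, 0 in dM1/2 and 2 for the effect at P28 minus that at P24. Other pathway genes called at P24 were 18 with DESeq2 against 12 in the main test. Limma on log2-CPM with TMM, added after seeing the data, gave the same counts of members as the main test.

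Replicate numbers of the labels did not pair the libraries at P24, P28 and P60. Same-numbered libraries correlated between -0.40 and 0.34 in their deviations from the group means, and at P20 (r = 0.08 to 0.23) every library correlated best with its own number. With the replicate block 1 member was called at P20, 2 at P24, 6 at P28, 0 at P60, 0 between P24 and P28 in control, 1 in dM1/2, 0 for the effect at P28 minus that at P24, and 6 for the effect in anagen minus that in telogen. The block called 1 other pathway gene at P20, 9 at P24 and 21 at P28.

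With 1 library left out, members called ranged from 0 to 1 at P20, from 2 to 6 at P24, from 5 to 9 at P28, from 0 to 1 between P24 and P28 in control and from 0 to 2 for the effect at P28 minus that at P24. Other pathway genes called ranged from 0 to 9 at P20, from 4 to 15 at P24 (4 without P24 control 2) and from 18 to 29 at P28. The call of Notch2 for the effect at P28 minus that at P24 rested on 100 called genes in all.

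The direction of some members with no call turned. For Notch2 at P24 the log2 fold change was -0.0050 with edgeR, -0.00055 with DESeq2 and -0.011 by limma with TMM. For Hey2 at P60 it was -0.066, -0.057 and -0.012 by the same 3 methods. For the effect at P28 minus that at P24, edgeR and DESeq2 gave -0.059 and -0.049 for Hes1 and -0.11 and -0.10 for Hey2. For Heyl in anagen against telogen they gave 0.14 and 0.13, and a pseudocount of 10 gave 0.0096. With 1 library left out, the ranges that crossed 0 at P20 were -0.23 to 0.028 for Notch2, -0.055 to 0.30 for Notch3 and -0.50 to 0.021 for Dll1. At P24 they were -0.10 to 0.10 for Notch2 and -0.17 to 0.28 for Jag1, and at P28 -0.63 to 0.28 for Hey1. At P60 they were -0.15 to 0.59 for Notch1, -0.36 to 0.10 for Notch3, -0.081 to 0.39 for Notch4, -1.40 to 0.094 for Dll1, -0.24 to 0.24 for Hey2 and -0.031 to 0.16 for Heyl. Between P24 and P28 in control the range was -0.093 to 0.80 for Hes1. For the effect at P28 minus that at P24 the ranges were -0.38 to 0.52 for Hes1, -0.17 to 0.73 for Hey1, -0.42 to 0.32 for Hey2 and -0.18 to 0.82 for Heyl. For anagen minus telogen the range was -0.41 to 0.038 for Hey1, and for anagen against telogen in control -0.24 to 0.27 for Heyl. The cause of these shifts was not tested. Precision was limited by 3 libraries per group. Libraries of P20 and P60 were of lower depth, and the part of depth in the precision was not tested.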
